A study of Mus musculus with 16 samples.

Results

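C-type lectin receptors of the Cd209 and Dectin gene clusters were followed in tumor-associated macrophages (TAMs) that either carried the surface receptor Tim-4 or lacked it. The members were chosen by name, with earlier results of these data known. Of these, 4 lie in the Cd209 cluster on chromosome 8 (*Cd209a*, *Cd209b*, *Cd209f* and *Cd209g*). The other 6 lie in the Dectin clusters on chromosome 6 (*Clec4n*, *Clec4d*, *Clec4e*, *Clec7a*, *Clec4a2* and *Clec12a*), which makes 10 of the 55604 genes listed in each lane. All 10 were found by Ensembl identifier, and 10 of 10 passed the count filter that left 16861 genes for testing. In GRCm38 with GENCODE M21, the Cd209 members lie between positions 3743397 and 4137707 of chromosome 8. On chromosome 6, *Clec4a2*, *Clec4n*, *Clec4d* and *Clec4e* of the Dectin-2 cluster lie between 123106428 and 123289870, and *Clec12a* and *Clec7a* of the Dectin-1 cluster between 129342691 and 129472779. Values are totals over the exons of each gene.

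RNA came from the peritoneal cavity of C57BL/6 mice 6 to 7 weeks after they had received ID8 cells, an ovarian cancer line of mouse origin. The study's methods give mice of 6 to 8 weeks of age. No gene manipulation is labelled for either subset, both subsets came from tumor-bearing hosts, and no macrophages of tumor-free mice were compared. Tim-4+ TAMs were taken first with magnetic beads against Tim-4, and Tim-4- TAMs were then taken from the remaining cells with beads against F4/80, a macrophage surface marker, so that the subsets differed in how they were captured as well as in Tim-4. Libraries carry the numbers 793, 784, 783 and 779, 1 of each subset per number (n = 4 pairs). The labels do not say whether a number stands for 1 mouse or a pool, and the p-values measure only the spread between these samples. Counts from the 2 lanes of each library were summed, and totals ranged from 53527928 to 57768202 in the Tim-4+ subset and from 55618306 to 69594245 in the Tim-4- subset. Levels are given as CPM (counts relative to the library's total, scaled with TMM factors, which correct for differences in RNA composition). A level of 3 counts, the least that could be told from 0, was 0.0382 to 0.0630 CPM between libraries, for counting error only.

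C-type lectins are transmembrane receptors that bind sugars, lipids or proteins of microbes and of damaged cells. Some signal for activation, through an intracellular motif of their own (*Clec7a*, which encodes Dectin-1) or through the adaptor FcRγ (*Clec4n*, Dectin-2; *Clec4d*, MCL; *Clec4e*, Mincle), and reach the kinase Syk and the adaptor Card9. Others carry an inhibitory motif that recruits phosphatases (*Clec4a2*, DCIR; *Clec12a*, MICL), whereas the Cd209 receptors, relatives of human DC-SIGN, are known mainly for binding and taking up mannose- or fucose-bearing ligands.

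The start regions of the 4 members that were higher in the Tim-4+ subset are shown. They were picked because these genes moved in the same direction and lie in the Cd209 cluster (*Cd209a*, *Cd209b*) or the Dectin-2 cluster (*Clec4d*, *Clec4e*). Each line holds the 250 bases upstream of the RefSeq start in GRCm38.p6, read 5′ to 3′ on the gene's strand. The intervals are chr8:3748985-3749234 (minus strand, *Cd209a*), chr8:3926842-3927091 (minus strand, *Cd209b*), chr6:123261857-123262106 (plus strand, *Clec4d*) and chr6:123289872-123290121 (minus strand, *Clec4e*). Capitals mark matches to the motif letters named after the sequences.
Cd209a: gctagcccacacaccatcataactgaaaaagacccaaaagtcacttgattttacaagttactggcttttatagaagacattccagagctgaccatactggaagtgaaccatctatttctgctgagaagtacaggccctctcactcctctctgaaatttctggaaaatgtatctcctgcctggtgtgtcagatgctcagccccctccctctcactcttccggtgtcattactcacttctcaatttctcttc
Cd209b: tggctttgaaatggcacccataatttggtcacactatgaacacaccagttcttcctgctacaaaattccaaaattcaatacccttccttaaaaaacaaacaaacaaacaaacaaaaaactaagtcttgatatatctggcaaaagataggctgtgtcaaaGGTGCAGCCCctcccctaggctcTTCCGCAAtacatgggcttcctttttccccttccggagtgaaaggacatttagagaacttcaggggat
Clec4d: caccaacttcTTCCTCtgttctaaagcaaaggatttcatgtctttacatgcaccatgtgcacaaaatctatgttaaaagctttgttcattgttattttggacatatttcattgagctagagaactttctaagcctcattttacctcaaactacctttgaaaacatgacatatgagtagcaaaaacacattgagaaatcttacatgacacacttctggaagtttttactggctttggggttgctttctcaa
Clec4e: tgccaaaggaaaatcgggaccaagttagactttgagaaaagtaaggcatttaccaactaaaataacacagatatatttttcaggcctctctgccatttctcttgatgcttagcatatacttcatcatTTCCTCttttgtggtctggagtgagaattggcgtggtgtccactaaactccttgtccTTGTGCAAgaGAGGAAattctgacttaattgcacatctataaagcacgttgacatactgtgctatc

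The letters searched on both strands were GAGGAA for PU.1, the myeloid lineage factor, TTGCNNAA for C/EBP, AGATAA for GATA factors and, for NF-κB, GGG and CC separated by 5 bases. *Clec4e* held the PU.1 letters at 2 places and the C/EBP letters at 1, *Clec4d* held the PU.1 letters at 1 place, *Cd209b* held the C/EBP and the NF-κB letters at 1 place each, and *Cd209a* held none of the 4 motifs. None of the matches overlapped one another. RefSeq windows were found for 9 of the 10 members, with *Clec4n* the missing entry, and the PU.1 letters were in 4 of these 9, against 23.1% of all 27025 windows of that length. The C/EBP letters were in 3 of 9 against 9.55%, the NF-κB letters in 3 of 9 against 45.4%, and the GATA letters in 0 of 9 against 10.3%. Of the 3 windows with the NF-κB letters, those of *Cd209f* and *Cd209g* hold them in an identical run of 154 bases and are not independent. Members that were not higher held such letters too. The lower member *Clec12a* held the PU.1 letters at 2 places and the C/EBP letters at 1, as *Clec4e* did. *Clec7a*, which did not pass the test, held the PU.1 letters at 1 place, and the lower member *Clec4a2* held none of the 4 motifs. Windows follow the RefSeq start. Those of *Clec4a2* (chr6:123122440-123122689), *Clec12a* (chr6:129349994-129350243) and *Cd209g* lie inside the gene as GENCODE M21 places it. *Clec7a* has 2 listed starts, of which only the first was read. A match describes these letters only and is not a site bound by the factor.

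The Tim-4 gene itself followed the sort in every pair. *Timd4* had 55230, 87151, 28683 and 56050 counts in the Tim-4+ libraries of pairs 793, 784, 783 and 779, and 5669, 814, 1747 and 128 counts in their Tim-4- partners. The Tim-4- library of pair 793 thus held the most *Timd4* RNA of its group, and its values are named below wherever that library stood apart.

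Between the subsets, 4 of the 10 members were higher in the Tim-4+ subset (*Cd209a*, *Cd209b*, *Clec4d* and *Clec4e*), 2 were lower (*Clec4a2* and *Clec12a*) and 4 did not pass the test (*Cd209f*, *Cd209g*, *Clec4n* and *Clec7a*). The test was edgeR's quasi-likelihood test with the pair number as a block, and calls were made at a Benjamini-Hochberg adjusted p below 0.05. Across all genes tested, 8.97% were higher and 8.43% lower by the same rule. Since the members were chosen with earlier results of these data known, this and the following shares describe the background and test nothing. All 4 higher members and *Clec4a2* changed by at least 2-fold, against 3.8% of genes higher and 5.79% lower at that size. The libraries of the subsets did not overlap for 3 members, *Cd209a*, *Cd209b* and *Clec4a2*, against 12.8% of all genes tested. The median log2 fold change was 0.42 over the members and -0.00 over all genes tested. The calls of the members rested on the pairing: without the pair number only *Clec4a2* passed, at an adjusted p of 0.0367. With libraries scaled by total counts in place of TMM, the median log2 fold change of all genes moved to -0.36 and the genes called became 789 higher and 4906 lower, against 1512 and 1421, while the members called stayed at 4 higher and 2 lower. Since whole populations were sequenced, fewer cells of a type and less RNA per cell cannot be told apart.

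**Figure D1:**
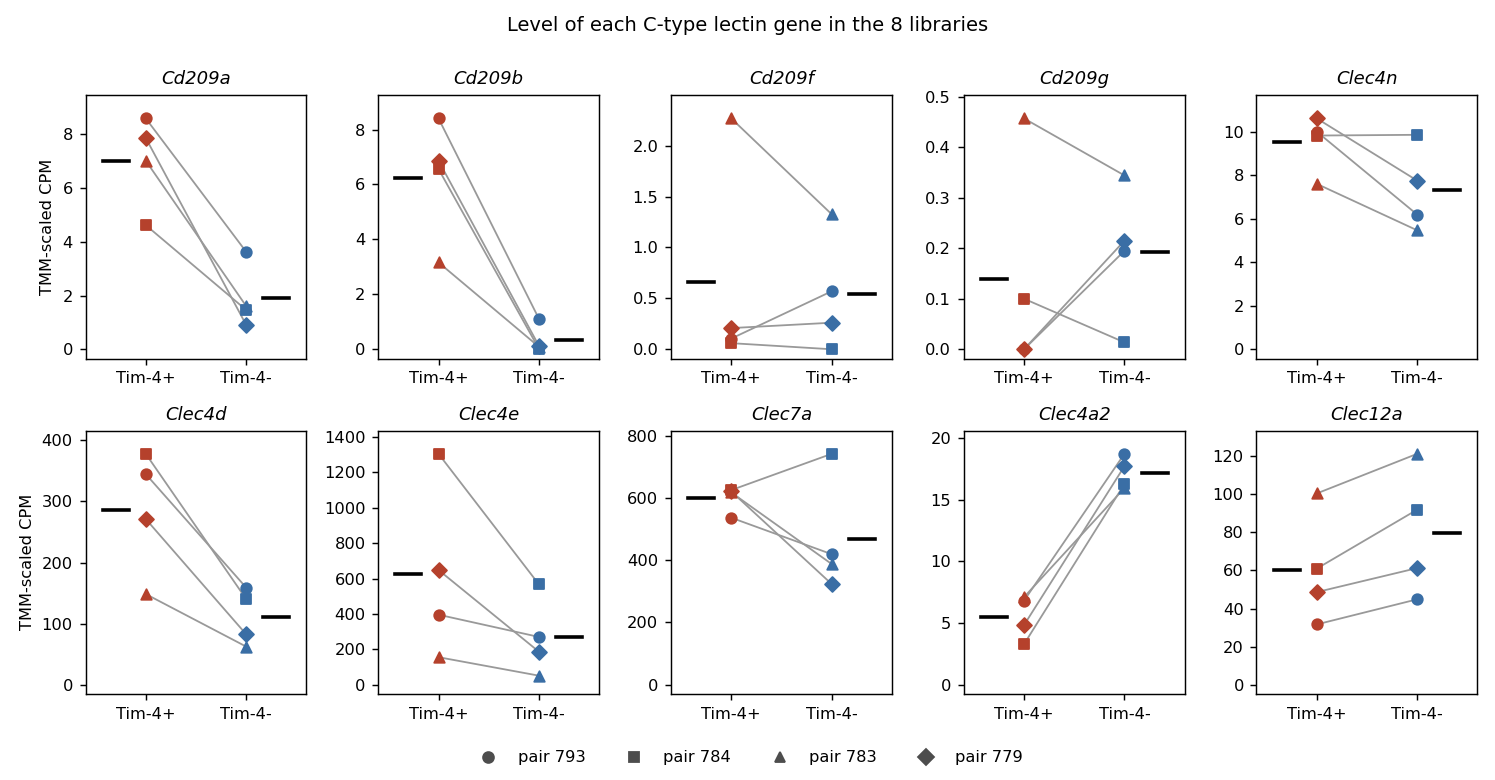
Levels of the 10 members in CPM (TMM-scaled, linear axes), with 1 panel per gene, 1 point per library, lines joining the libraries of a pair and a tick at the mean of each subset (n = 4). *Cd209a* and *Cd209b* sit higher in every Tim-4+ library than in any Tim-4- library and *Clec4a2* sits lower, whereas the lines of *Clec4e* all rise toward Tim-4+ TAMs from starting levels of 50.9 to 567 CPM.

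*Cd209b* (ENSMUSG00000065987.12, chr8:3917655-3926844, minus strand) encodes SIGN-R1, a receptor of tissue-resident macrophages that takes up bacterial and fungal polysaccharides, and it showed the largest change among the members. Its counts were 400, 328, 173 and 330 in the Tim-4+ libraries of pairs 793, 784, 783 and 779, and 74, 1, 7 and 8 in the Tim-4- libraries. The groups did not overlap, and 1 Tim-4- library, that of pair 784, was under the floor of 3 counts. Mean levels were 6.25 ± 2.21 CPM (SD, n = 4) in the Tim-4+ subset and 0.334 ± 0.519 CPM (SD, n = 4) in the Tim-4- subset. The fitted log2 fold change was 5.08 (95% interval 3.15 to 7.01, adjusted p = 0.0129), the 5th highest of the 16861 genes. The pair ratios ranged from 2.89 in pair 793 to 7.14 in pair 784 on the log2 scale, and the smallest ratio belonged to the pair whose Tim-4- library held the most *Timd4*. Leaving out pair 784 or pair 779 took the adjusted p to 0.0546 and 0.0599, with *Cd209b* still higher in each remaining pair.

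*Cd209a* (ENSMUSG00000031494.7, chr8:3743397-3748984, minus strand) encodes the receptor of this cluster that carries the name DC-SIGN in mice and is often used as a marker of monocyte-derived dendritic cells. In pairs 793, 784, 783 and 779 it measured 8.59, 4.62, 7.02 and 7.86 CPM in the Tim-4+ subset and 3.63, 1.46, 1.61 and 0.906 CPM in the Tim-4- subset. Every Tim-4+ library lay above every Tim-4- library, with the closest values 4.62 and 3.63 CPM. The log2 fold change was 2.02 (95% interval 1.26 to 2.77, adjusted p = 0.0104), a 4.05-fold difference, with pair ratios of 1.24, 1.64, 2.11 and 3.07 on the log2 scale. Without pair 784 the adjusted p was 0.0646 and the log2 fold change 2.14.

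*Cd209f* and *Cd209g* are less studied relatives, and both had few counts in most libraries, with *Cd209f* above 100 counts only in pair 783. The counts of *Cd209f* were 5, 3, 124 and 10 in the Tim-4+ subset and 38, 0, 104 and 17 in the Tim-4- subset, in the same order of pairs. For *Cd209g* the counts were 0, 5, 25 and 0 in the Tim-4+ subset and 13, 1, 27 and 14 in the Tim-4- subset. Both genes were highest in pair 783, in both subsets, and their subsets overlapped throughout. The log2 fold changes were -0.10 (95% interval -2.06 to 1.86, adjusted p = 0.95) and -0.95 (95% interval -3.96 to 2.07, adjusted p = 0.654). The pairs disagreed, with log2 ratios from -2.13 to 1.49 for *Cd209f* and from -2.91 to 1.51 for *Cd209g*. Neither a several-fold rise nor a several-fold fall could thus be told apart from no change. Of the possible 50-base reads from their exons, 29.8% of those of *Cd209f* and 16.6% of those of *Cd209g* occur in another gene, chiefly in each other, and the authors' counts leave out reads without a unique place. Each 50-base stretch was scored singly, whereas the study sequenced both ends of a fragment, so these shares can overstate the reads left out. The identical run of 154 bases in their RefSeq windows is not a separate finding. By GENCODE M21 the *Cd209g* window (chr8:4134486-4134735) lies inside the exon of that gene, and the *Cd209f* window overlaps the start of its gene. The values of both genes are therefore uncertain.

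*Clec4d* (ENSMUSG00000030144.4, chr6:123262111-123275265, plus strand) and *Clec4e* (ENSMUSG00000030142.10, chr6:123281789-123289870, minus strand) lie next to each other on chromosome 6 and encode MCL and Mincle, FcRγ-coupled receptors for mycobacterial glycolipids, of which Mincle also binds a nuclear protein released by dying cells. *Clec4d* measured 345, 378, 148 and 271 CPM in the Tim-4+ subset of pairs 793, 784, 783 and 779 and 159, 140, 62.3 and 82.4 CPM in their Tim-4- partners. *Clec4e* measured 396, 1305, 155 and 648 CPM in the Tim-4+ subset and 270, 567, 50.9 and 186 CPM in the Tim-4- subset. Both genes were higher in the Tim-4+ library of every pair, yet the subsets overlapped, since pair 783 was low and pair 784 high for *Clec4e* in both subsets. The log2 fold change of *Clec4d* was 1.38 (95% interval 1.08 to 1.68, adjusted p = 0.00366) and that of *Clec4e* was 1.29 (95% interval 0.80 to 1.79, adjusted p = 0.0113), or 2.60-fold and 2.45-fold. For *Clec4e* the highest library exceeded the lowest by 8.40-fold within the Tim-4+ subset and by 11.1-fold within the Tim-4- subset, so the difference between pairs was larger than the difference between subsets. Without the pair number its adjusted p was 0.398, and that of *Clec4d* 0.0753. Without pair 784 the adjusted p of *Clec4e* was 0.072.

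*Clec4n* encodes Dectin-2, a receptor for fungal mannans that shares its cluster with *Clec4d* and *Clec4e*, and its level was far lower than theirs. It measured 10.002, 9.82, 7.60 and 10.6 CPM in the Tim-4+ subset and 6.19, 9.86, 5.47 and 7.75 CPM in the Tim-4- subset. The log2 fold change was 0.40 (95% interval -0.0034 to 0.81, adjusted p = 0.152), with no difference in pair 784 (log2 ratio -0.00) and 0.45 to 0.69 in the other 3. *Clec7a* encodes Dectin-1, the β-glucan receptor of macrophages, and is annotated in GENCODE M21 as a polymorphic pseudogene. It measured 537, 625, 618 and 621 CPM in the Tim-4+ subset and 419, 742, 388 and 323 CPM in the Tim-4- subset. The Tim-4+ libraries lay within 1.17-fold of each other while the Tim-4- libraries spread over 2.29-fold, and pair 784 ran opposite to the other 3. The log2 fold change was 0.43 (95% interval -0.03 to 0.90, adjusted p = 0.174). The upper ends of these intervals do not exclude differences approaching 2-fold for either gene. Both estimates depended on the scaling. With total counts in place of TMM, the same edgeR test gave 0.045 for *Clec4n* (adjusted p = 0.877) and 0.076 for *Clec7a* (adjusted p = 0.787).

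*Clec4a2* (ENSMUSG00000030148.15, chr6:123106428-123143999, plus strand) encodes DCIR, whose cytoplasmic motif recruits inhibitory phosphatases, and it was the more strongly lower of the 2 inhibitory members. It measured 6.81, 3.28, 7.09 and 4.83 CPM in the Tim-4+ subset of pairs 793, 784, 783 and 779 and 18.7, 16.3, 15.9 and 17.7 CPM in the Tim-4- subset. Each Tim-4- library exceeded each Tim-4+ library, and the Tim-4- libraries lay within 1.17-fold of each other. The log2 fold change was -1.70 (95% interval -2.18 to -1.21, adjusted p = 0.00637), 3.24-fold lower in the Tim-4+ subset. It passed the test under every alternative that was run. Of its possible 50-base reads, scored singly, 6.83% occur in another gene, among them *Clec4a4* and *Clec4b1*. *Clec12a* (ENSMUSG00000053063.11, chr6:129342691-129365303, plus strand) encodes MICL, an inhibitory receptor for uric acid crystals of dead cells, and measured 31.6, 60.9, 100.4 and 48.6 CPM in the Tim-4+ subset and 44.8, 91.9, 121 and 61.2 CPM in the Tim-4- subset. The subsets overlapped widely, but the Tim-4+ library was the lower one in all 4 pairs. The log2 fold change was -0.42 (95% interval -0.66 to -0.19, adjusted p = 0.0300), 1.34-fold lower. This call was lost when pair 793, 784 or 779 was left out, at adjusted p of 0.12, 0.117 and 0.0723, and without the pair number (adjusted p = 0.622).

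**Figure D2:**
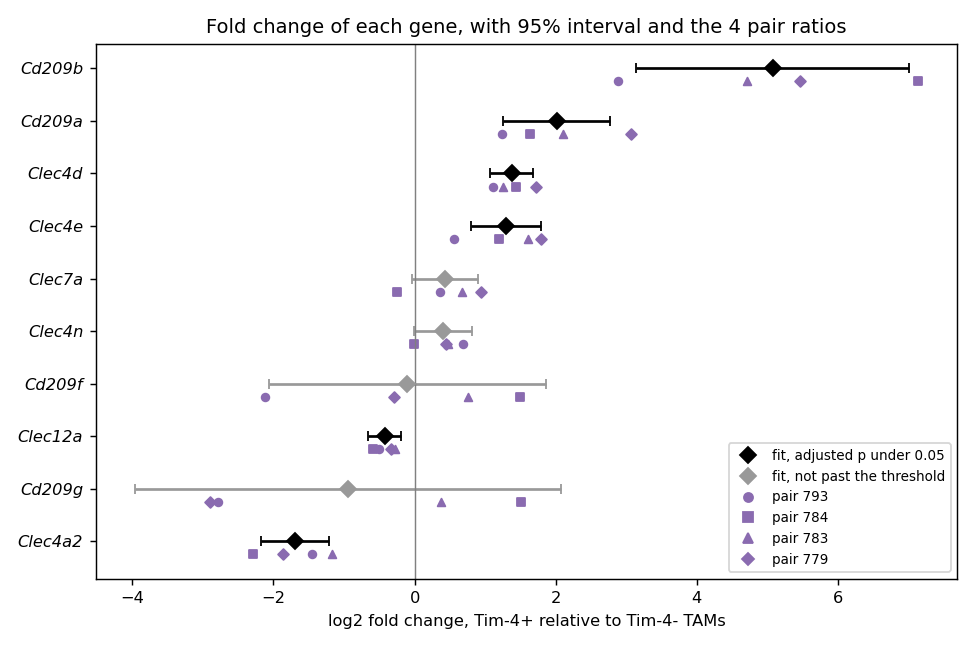
Log2 fold change of each member, Tim-4+ against Tim-4- TAMs, from edgeR's quasi-likelihood fit with the pair block. Large symbols and bars give the fitted value and its 95% interval, and small points give the log2 ratio of each of the 4 pairs. *Cd209b* (5.08), *Cd209a* (2.02), *Clec4d* (1.38) and *Clec4e* (1.29) lie above 0 with their intervals, *Clec4a2* (-1.70) and *Clec12a* (-0.42) below it, and the intervals of *Cd209f* and *Cd209g* are the widest.

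In all 4 pairs 6 members moved in the same direction, as did 42.6% of all genes tested. These were the same 6 that passed the test. In pair 793 the log2 ratios of the 4 higher members were each the smallest of the 4 pairs, at 1.24 for *Cd209a*, 2.89 for *Cd209b*, 1.12 for *Clec4d* and 0.55 for *Clec4e*. Its Tim-4- library also held the most *Timd4*, and the part of that in these ratios was not tested. Without pair 793 the members called were 4 higher and 1 lower.

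Per kilobase of exon, 3 members stood above the other 7 by their means in both subsets. In Tim-4+ TAMs the mean levels per length were 228 CPM per kb for *Clec7a*, 179 for *Clec4d* and 126 for *Clec4e*, and their ranges over libraries overlapped, so these 3 could not be ordered. *Clec12a* followed at 10.9 CPM per kb, *Clec4n* at 6.70, *Cd209a* at 4.44, *Cd209b* at 2.95 and *Clec4a2* at 1.88, each overlapping its neighbor in this order, while no library of the first 3 genes was as low as any library of *Clec12a*. *Cd209f* and *Cd209g* were lowest at 0.332 and 0.0386 CPM per kb. In Tim-4- TAMs *Clec7a* was again highest at 177 CPM per kb, *Clec4d* measured 69.4 and *Clec4e* 54.1. *Clec7a* did not overlap *Clec4d* here, whereas *Clec4e* overlapped both *Clec4d* and *Clec12a*. Below them the order differed, with *Clec12a* at 14.4, *Clec4a2* at 5.86, *Clec4n* at 5.15, *Cd209a* at 1.20, *Cd209f* at 0.271, *Cd209b* at 0.158 and *Cd209g* at 0.0532 CPM per kb.

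**Figure D3:**
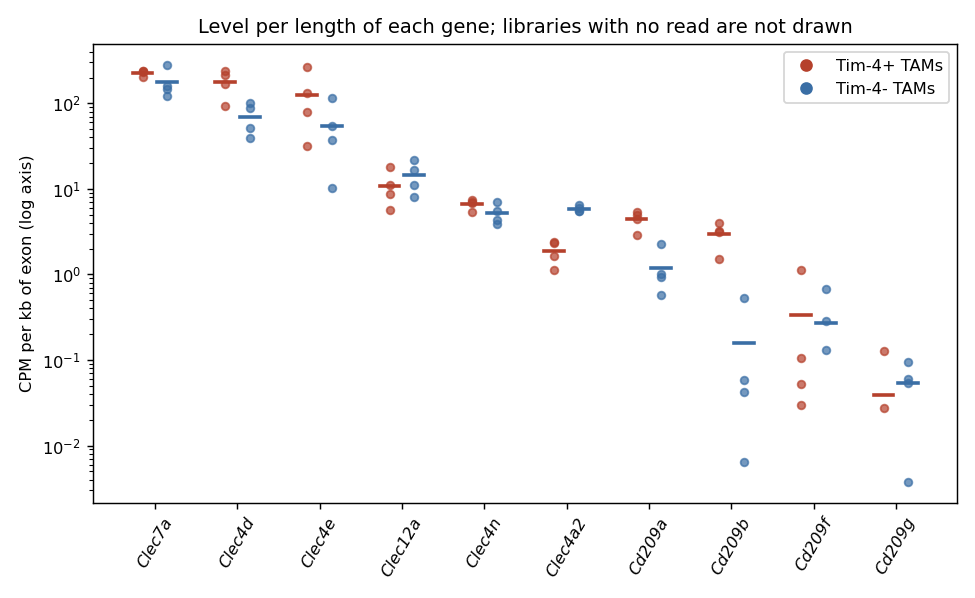
Level of each member per exon length in CPM per kb (log axis), with 1 point per library and the subsets side by side. *Clec7a*, *Clec4d* and *Clec4e* have the highest means in both subsets. The mean of *Cd209b* lies above that of *Clec4a2* in Tim-4+ TAMs and below it in Tim-4- TAMs.

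The neighboring genes of the clusters did not all move with the members. In the Cd209 cluster only 1 of 5 other genes had enough counts to be tested, *Cd209c*, at 1.06 ± 0.716 CPM in the Tim-4+ subset and 1.13 ± 0.144 CPM in the Tim-4- subset (SD, n = 4, adjusted p = 0.695). *Cd209d*, *Cd209e*, *Clec4g* and *Fcer2a* did not reach the count filter. In the Dectin-2 cluster, beside the members, 2 of 3 tested genes were lower in the Tim-4+ subset. *Clec4b1*, which encodes the DCAR receptor, had 4 to 24 counts in the Tim-4+ subset and 69 to 71 in the Tim-4- subset (log2 fold change -2.03, standard error 0.51, adjusted p = 0.0332), with no overlap. *Clec4a1*, a DCIR relative, measured 56.6 ± 20.5 and 72.9 ± 22.6 CPM (SD, n = 4), with a log2 fold change of -0.38 (adjusted p = 0.0454), whereas *Clec4a3*, another DCIR relative, had a log2 fold change of -0.23 and did not pass (adjusted p = 0.349). *Clec4a4* had too few counts and *Clec4b2* was at 0 in all 8 libraries. Within this cluster the DCIR-type and DCAR genes that passed were thus lower, and *Clec4d* and *Clec4e* were higher.

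In the Dectin-1 cluster 1 of 4 tested neighbors was higher. *Clec1b*, which encodes the podoplanin receptor CLEC-2, had 160 to 259 counts in the Tim-4+ subset and 19 to 34 in the Tim-4- subset, and its log2 fold change was 3.38 (adjusted p = 0.00354, standard error 0.32). It shares 184 exon bases with *Clec9a*, the dendritic cell receptor for actin of dead cells, which did not pass (log2 fold change 0.59, adjusted p = 0.581). *Clec1a* (log2 fold change 0.19, adjusted p = 0.877) and *Olr1*, the receptor for oxidized LDL (0.84, adjusted p = 0.0944), did not pass either, and *Clec12b* was not tested for lack of counts. *Clec7a* and *Clec12a*, the members of this cluster, had log2 fold changes of 0.43 and -0.42.

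**Figure D4:**
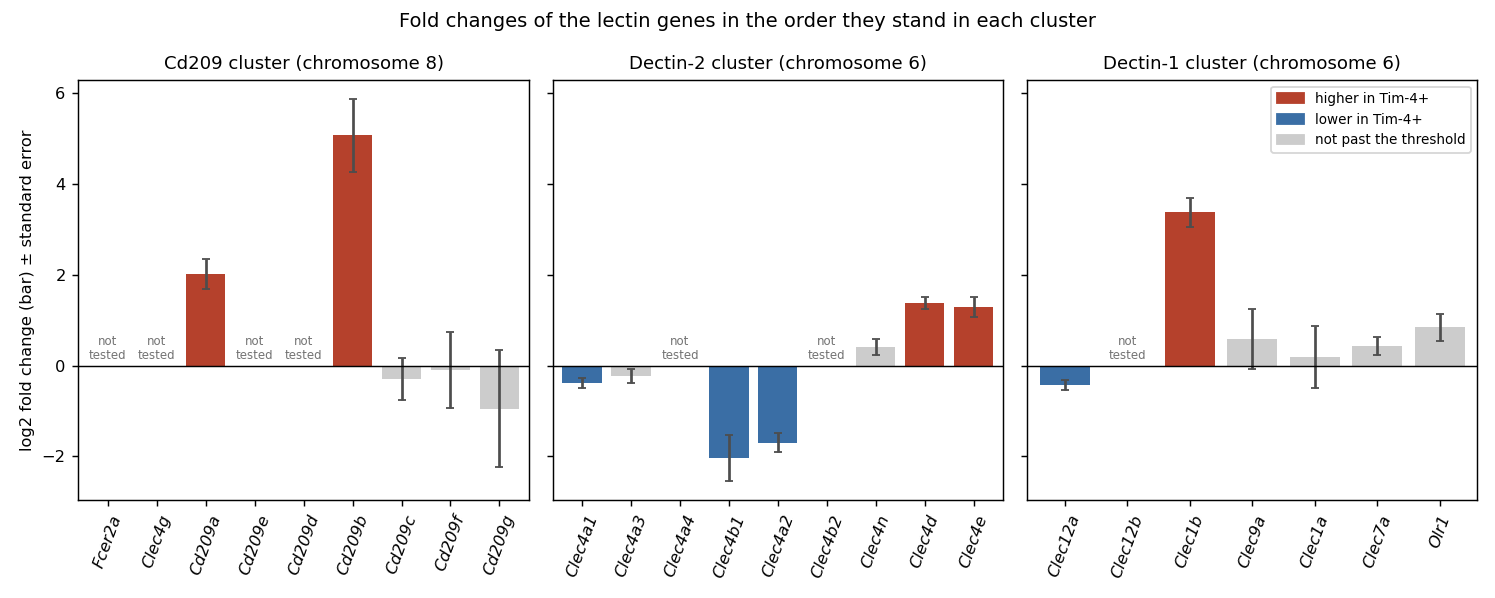
Log2 fold change, Tim-4+ against Tim-4- TAMs, of the tested genes of the Cd209, Dectin-2 and Dectin-1 clusters in their order along the chromosome (evenly spaced, not to distance), with bars for the fitted value, whiskers for the standard error and colors for the call. Called genes of opposite direction lie in the same Dectin-2 cluster, where *Clec4d* and *Clec4e* are above 0 and *Clec4a1*, *Clec4b1* and *Clec4a2* below it.

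Among 12 other C-type lectin receptors of myeloid cells, 9 could be tested, of which 2 were higher, 1 was lower and 6 did not pass, with a median log2 fold change of 0.01. For this and the lists that follow, 8.97% of all genes tested were higher and 8.43% lower. *Colec12*, a scavenger receptor with a lectin domain, was at 73.0 ± 11.8 CPM in the Tim-4+ subset and 11.1 ± 5.46 CPM in the Tim-4- subset (SD, n = 4, log2 fold change 2.85, adjusted p = 0.00394). *Cd302* had a log2 fold change of 0.59 (adjusted p = 0.0314). *Mrc1*, the mannose receptor, was lower at 169 ± 124 against 313 ± 143 CPM (SD, n = 4, log2 fold change -1.09, adjusted p = 0.0115). This is an RNA value, whereas the study found its protein, CD206, at comparable levels in both subsets.

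Of 18 genes for adaptors and enzymes through which these receptors signal, 4 were higher, 1 was lower and 13 did not pass (median log2 fold change 0.37). The shares over all genes tested were 8.97% higher and 8.43% lower. The higher genes included *Fcer1g*, which encodes the FcRγ chain that *Clec4d*, *Clec4e* and *Clec4n* products need, at 689 ± 41.3 against 435 ± 58.9 CPM (SD, n = 4, log2 fold change 0.67, adjusted p = 0.0161). *Tyrobp*, the adaptor DAP12, had a log2 fold change of 0.84 (adjusted p = 0.0238), and *Ptpn6*, the phosphatase SHP-1 that inhibitory receptors recruit, one of 0.63 (adjusted p = 0.0299). The kinase gene *Src* was lower (-1.69, adjusted p = 0.0336). *Syk* (log2 fold change 0.56, adjusted p = 0.0595) and *Card9* (0.36, adjusted p = 0.132), which lie downstream of the activating receptors, did not pass.

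Of 13 genes that such receptors can induce, 12 could be tested and 7 were higher, with 5 not passing and a median log2 fold change of 1.32. Across all genes tested, 8.97% were higher. The list was chosen with earlier results of these data known, so its count is a description only. The largest changes were those of *Csf2* (GM-CSF), with 5 to 80 counts in the Tim-4+ subset and 0 to 12 in the Tim-4- subset (adjusted p = 0.0168), *Il6* (log2 fold change 2.91, adjusted p = 0.00613) and *Ptgs2*, the inducible cyclooxygenase (2.28, adjusted p = 0.0155). Many other stimuli induce these genes, and their link to the lectin receptors was not tested.

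Markers of other cells moved between the subsets as well. The 7 macrophage markers summed to 43234 to 55590 CPM in the Tim-4+ subset and 20730 to 33069 CPM in the Tim-4- subset, 5 of 7 higher, with *Lyz2* the most abundant, so the labelled cell type was present in all 8 libraries. Of 8 tumor and mesothelial markers, 8 were lower in the Tim-4+ subset, with sums of 103 to 382 against 410 to 1909 CPM, led by *Krt19*. Monocyte markers, 3 of 5 lower and led by *Ccr2*, summed to 55.8 to 121 against 182 to 221 CPM, and without *Ccr2* the sums overlapped (39.8 to 109 against 51.8 to 93.8 CPM). *Clec4a2*, *Clec4b1* and *Mrc1* were lower in the same libraries, and the part of monocytes in these differences was not tested.

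The 7 dendritic cell markers (6 tested, 1 higher and 1 lower) summed to 97.6 to 317 CPM in the Tim-4+ subset and 30.8 to 64.1 CPM in the Tim-4- subset, led by *Cd24a*. Without *Cd24a*, which other cells also express, the sums overlapped at 4.96 to 21.5 against 8.69 to 16.2 CPM, *Zbtb46* was lower (log2 fold change -0.89, adjusted p = 0.0261) and *Clec9a* had 3 to 92 against 19 to 50 counts. The 10 neutrophil markers (4 tested, 2 higher) summed to 264 to 372 against 90.6 to 204 CPM, led by *Csf3r*. Without *Csf3r* the sums overlapped at 5.98 to 15.4 against 5.42 to 15.2 CPM, and the defining gene *Ly6g* had at most 5 counts in any library. *Clec4d* and *Clec4e* are also transcribed by neutrophils, and *Cd209a* by dendritic cells. Eosinophil and mast cell markers, 1 of 4 tested lower, summed to 0.841 to 1.41 against 0.535 to 18.8 CPM, led by *Cpa3*. B cell markers, 1 of 5 lower, summed to 5.36 to 15.2 against 10.5 to 17.9 CPM, led by *Cd79a*. Of 7 T and NK cell markers only 1, *Cd4*, could be tested, which was lower. The sums were 0.357 to 2.16 against 3.55 to 9.30 CPM, led by *Cd4*. Without *Cd4* they overlapped at 0.0416 to 0.420 against 0.105 to 1.82 CPM. The part of these other cells in the members' differences was not tested.

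**Figure D5:**
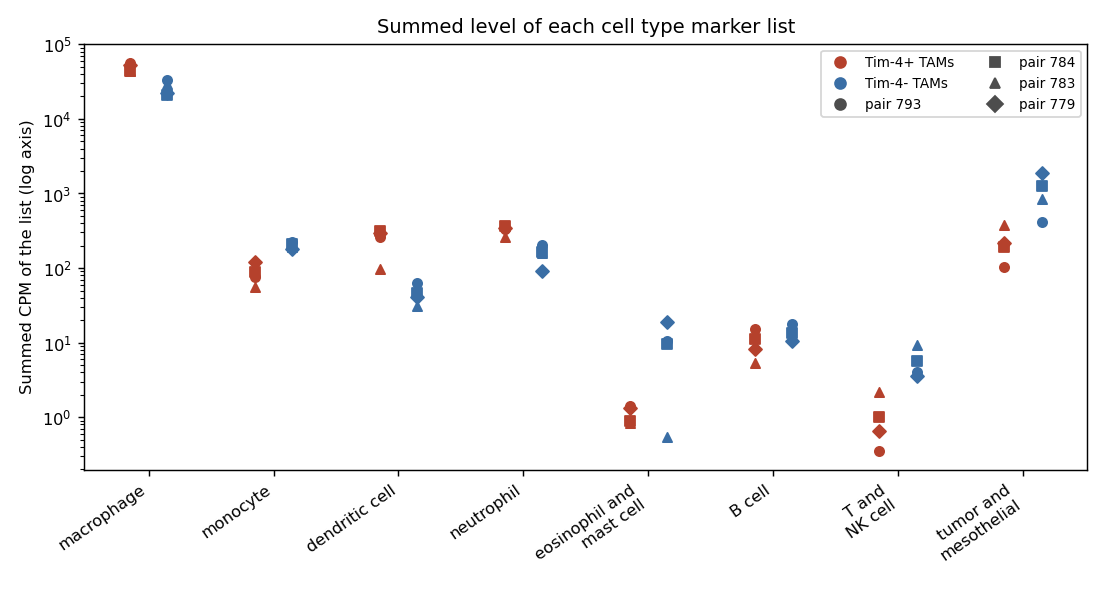
Summed level of each marker list in CPM (log axis), with 1 point per library and the subsets side by side. Macrophage markers exceed all other lists in every library, tumor and mesothelial and monocyte markers are higher in all Tim-4- libraries, and the neutrophil and dendritic cell sums, carried by *Csf3r* and *Cd24a*, are higher in all Tim-4+ libraries.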

How the data were processed

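RNA was sequenced in 8 TAM libraries, 1 of each subset for each of 4 pair numbers, on 2 lanes each, after removal of ribosomal RNA, with paired-end 50-base reads. The deposited values are raw counts of reads on each gene, by lane, which the authors did not normalize. The submitters' processing notes name FastQC 0.11.3, TopHat2 2.0.13, Cufflinks and Cuffdiff 2.2.1 with GRCm38; the counter and its strand setting are not given in the sources used here, so overlapping and antisense genes are uncertain. Reads aligned to several places were set aside, 20.3% to 24.5% in 14 lanes but 9.11% in lane 2 of the Tim-4- library of pair 779, whose lane 1 had 24.5%. The symbol-listed lane gives no such value. Lane 1 of the Tim-4- library of pair 793 is listed by symbol, with its *Timd4* row moved to the top. That row was returned to its place, and the other rows were joined by row order (96.9% of symbols matched). Lanes of a library differed by a chi-square of 2.29 to 2.42 per degree of freedom over genes with at least 50 counts and were summed as 1 replicate.

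Genes reaching 10 counts in 4 or more libraries were tested with edgeR 4.0.16 (R 4.3.3): TMM factors (0.833 to 0.947 in Tim-4+ and 1.05 to 1.18 in Tim-4- TAMs), robust quasi-likelihood, a block for the pair number, and p-values adjusted by Benjamini-Hochberg over 16861 genes. Same-numbered libraries deviated together (r of 0.277 to 0.498 across genes, and 8 of 8 libraries matched their own number best), and the study compared paired subsets. A standard error is the log2 fold change divided by the square root of F. The calculation was also run on simulated data in which every gene had the same spread beyond a pair effect. That run does not cover genes with larger differences between pairs, such as *Clec4e*. Coordinates and exon lengths are from GENCODE M21, upstream sequences from RefSeq.

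The members and the gene lists were chosen with earlier results of these data known. Named genes are the members, the measured genes of their clusters, the 3 largest called changes in each direction of every other list, and, for markers, the most abundant gene. *Syk*, *Card9*, *Zbtb46* and *Ly6g* fall outside this rule and were named after their values were seen. Alternatives were DESeq2 (1.42.0) with the block and its size factors, total counts, no block, other count filters, the second lane alone, leaving out the lane listed by symbol, and leaving out each pair.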

Additional observations from a re-analysis of the deposited data

Results flagged for a closer look

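Within a subset, 3 of the 20 groups of 4 libraries (10 members in 2 subsets) held a library far from the other 3 by Dixon's criterion, which chance meets in about 1 group in 20. *Cd209b* was at 1.11 CPM in the Tim-4- library of pair 793, against 0.0137 to 0.123 CPM in the other Tim-4- libraries. This was also the Tim-4- library with the most *Timd4*. *Cd209f* was at 2.27 CPM in the Tim-4+ library of pair 783, against 0.0600 to 0.208 CPM in the others. *Clec7a* was at 537 CPM in the Tim-4+ library of pair 793, below the 618 to 625 CPM of the others.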

How the results depend on the processing

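Without the pair block, 0 members were higher and 1 was lower by edgeR's quasi-likelihood test (3 and 1 at an unadjusted p under 0.05), and 147 genes were higher and 85 lower in all. DESeq2 with the block called 4 members higher and 2 lower, and 2204 genes higher and 2323 lower in all. With total counts 789 genes were higher and 4906 lower. With 1 pair left out, 1 to 4 members were higher and 1 to 2 lower, and 91 to 1608 genes were higher and 67 to 1975 lower. The lowest counts came without pair 784. *Cd209b* missed the threshold without a count filter (adjusted p = 0.0715). The direction of *Cd209f*, never called, turned to a log2 fold change of 0.30 without the block and 0.043 with DESeq2, and ranged from -0.56 to 0.70 with 1 pair left out (0.70 without pair 793). Of 114 comparisons of single members with an alternative, 97 kept direction and side of the threshold, 13 lost the call and these 3 reversed. The remaining 1, *Cd209g* with DESeq2, kept its direction but had no adjusted p. The 114 include members that were never called and had no call to lose, so all 13 losses fell on called members. *Cd209f* and *Cd209g* had too few counts to be tested at a filter of 50 counts and with lane 2 only, and *Cd209g* also with the symbol-listed lane left out and without pair 783. The cause of these shifts was not tested. Low counts in most libraries and disagreement between pairs both limit *Cd209f* and *Cd209g*. The floor of 3 counts covers counting error only.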

Other observations

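The level of *Clec4d* per exon length relative to *Clec4e*, its neighbor, differed more between pairs than between subsets. The ratio was 2.71, 0.899, 2.96 and 1.30 in the Tim-4+ subset of pairs 793, 784, 783 and 779 and 1.83, 0.767, 3.80 and 1.37 in the Tim-4- subset, so that pair 784 was lowest, pair 783 highest and the order of the 4 pairs the same in both subsets. Within the 4 Cd209 members, *Cd209b* made up 38.2 ± 12.7% (SD, n = 4) of the summed level per length in the Tim-4+ subset and 6.67 ± 7.16% in the Tim-4- subset.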
